A study of Caenorhabditis elegans with 12 samples.

Results

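The genes described are glp-1 (WBGene00001609), gld-1 (WBGene00001595), gld-2 (WBGene00001596), gld-3 (WBGene00001597), fbf-1 (WBGene00001401) and fbf-2 (WBGene00001402) of Caenorhabditis elegans, 6 of the 46760 genes counted in each library. They were chosen by name and gene identifier, without a cut on any measured value, but with earlier results of these data known. In the adult gonad, germ cells at the distal end divide as stem cells, and farther from that end they enter meiosis. GLP-1, a receptor of the Notch family, holds the distal cells in the dividing state, and the related RNA-binding proteins FBF-1 and FBF-2 repress mRNAs that drive meiosis, gld-1 mRNA among them. GLD-1, a KH-domain repressor of translation, and the cytoplasmic poly(A) polymerase GLD-2 with its partner GLD-3 promote entry into meiosis.

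H3K9me3, a histone mark tied to silent chromatin, was profiled by CUT&Tag, in which an antibody directs a transposase to cut and tag the DNA around the bound nucleosomes. The nuclei were a purified germline fraction of day 1 adults grown at 20 °C, taken from large pools of whole worms. Wild-type N2 animals were compared with hrde-1(tm1200) mutants (strain USC661), altered in the nuclear Argonaute HRDE-1, and with hrde-2/enri-3(qe20) mutants (strain FD53), affected in another protein of the nuclear RNAi pathway. Each genotype had 3 H3K9me3 libraries from biological replicates and 1 library labelled IgG, for which, per the study's methods, no primary antibody was added. Per the study, the antibody against H3K9me3 cross-reacted with H3K27me3 and with H4K20me3, and the signal may include those marks. Each mutant is represented by a single strain, and no gene of the 6 carried a mutation in the labels.

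Total counts in exons ran from 1470699 (wild-type replicate 2, the shallowest of its kind) to 8719542 in the 9 H3K9me3 libraries. The IgG libraries held 233980 counts in wild-type, 37617 in hrde-1 and 13950 in hrde-2 mutants, so that 3 counts, the limit a count of 0 allows, stood for 12.8, 79.8 and 215 CPM (counts scaled to 1000000 counts of the library). Nuclear rRNA genes took 13.2% to 24.6% of the counts in the H3K9me3 libraries and 23.5% to 35.1% in the IgG libraries. No scaling to added DNA was made, so every level is relative to the other genes of its library. Levels are given as CPM per kb of exon, which allows genes of different length to be compared.

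fbf-1 and fbf-2 are neighbouring copies on chromosome II, both on the minus strand, with 8022 bp between them. fbf-1 spans chrII:6078265-6080843 and has 2253 bp of exon, and fbf-2 spans chrII:6088866-6091480 and has 2283 bp of exon. In a global alignment of the joined exons, 94.1% of 2203 aligned bases were identical, and the longest identical run was 210 bases. Of the 50-base words in the exons of fbf-1, 22.4% also occurred elsewhere in the genome, each of them in fbf-2, and 22.1% of those of fbf-2 occurred in fbf-1. With 50-base reads, a fragment that lies wholly in such a stretch fits both genes. These letters are shown because they set how well the 2 counts can be told apart. The first pair of 80-base windows is the first without any difference and the second pair has the most differences, 19, among 1359 gap-free windows that lie in a single exon of each gene (median 3). Bases are written 5′ to 3′ on the gene's strand from build WBcel235, and capitals mark bases that differ between the genes. The alike windows lie at chrII:6080039-6080118 (fbf-1) and chrII:6090683-6090762 (fbf-2), and the unlike windows at chrII:6080552-6080631 (fbf-1) and chrII:6091202-6091281 (fbf-2).
fbf-1, alike: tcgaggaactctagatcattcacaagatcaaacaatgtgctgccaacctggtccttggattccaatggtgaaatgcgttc
fbf-2, alike: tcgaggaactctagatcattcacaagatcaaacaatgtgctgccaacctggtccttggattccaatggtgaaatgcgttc
fbf-1, unlike: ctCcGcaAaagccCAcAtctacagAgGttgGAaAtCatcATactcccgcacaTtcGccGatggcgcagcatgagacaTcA
fbf-2, unlike: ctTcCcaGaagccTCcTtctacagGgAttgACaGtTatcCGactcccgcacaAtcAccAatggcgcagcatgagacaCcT

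gld-3 also lies on chromosome II (chrII:7132643-7137522, plus strand, 3847 bp of exon in 20 merged exons), 1041162 bp beyond fbf-2. glp-1 lies on chromosome III (chrIII:9092241-9099698, plus strand, 4326 bp of exon). No 50-base word of gld-1, gld-2 or gld-3 exons occurred elsewhere in the genome, and 2.39% of those of glp-1 did. All coordinates are those of the deposited files, whose annotation, WS258, uses the same assembly.

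gld-1 (chrI:7695661-7698227, plus strand, 2244 bp of exon) and gld-2 (chrI:6369934-6386183, plus strand, 6117 bp of exon in 21 merged exons) share a chromosome but are 1309477 bp apart. Exons made up 37.6% of the span of gld-2 and 87.4% of that of gld-1, and introns, which hold most of gld-2, were not counted. The midpoint of each of the 6 genes fell between 39.8% and 66.0% of its chromosome's length, within the middle of 3 equal parts (called the chromosome centre here), where H3K9me3 in C. elegans is known to be sparser than on the arms. Shared exon bases with other genes were few, 18 bp of glp-1 with ZK507.1 and 35 bp of gld-2 with klu-2, both on the opposite strand.

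The receptor gene glp-1 had a level of 15.9, 18.2 and 15.8 in wild-type replicates 1, 2 and 3. The hrde-1 libraries gave 16.8, 17.5 and 16.9, and the hrde-2 libraries 19.7, 21.3 and 20.2. All hrde-2 libraries lay above the wild-type and hrde-1 libraries, whose ranges overlapped each other. The share of all genes tested whose libraries separate in this way was not determined. A separation of ranges, here and below, thus describes the values and is not read as particular to a gene. The means were 16.6 ± 1.40 in wild-type, 17.02 ± 0.379 in hrde-1 and 20.4 ± 0.833 in hrde-2 libraries (SD, n = 3 each).

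fbf-1, which encodes a repressor of gld-1 mRNA, had 18.3, 18.1 and 14.8 in wild-type, 17.9, 16.1 and 16.8 in hrde-1 and 21.0, 22.5 and 18.04 in hrde-2 mutants. The wild-type range overlapped those of both mutants, and the hrde-2 libraries lay just above the hrde-1 libraries, an order lost with TMM-scaled library sizes or without rRNA and mitochondrial genes in the totals. With TMM-scaled library sizes the hrde-2 libraries of fbf-1 (17.9 to 21.03) lay above wild-type (16.9 to 17.8). fbf-2, its near-copy, had 19.03, 20.3 and 15.2 in wild-type, 16.9, 20.0 and 23.1 in hrde-1 and 25.8, 25.7 and 27.0 in hrde-2 mutants. For fbf-2 the hrde-2 libraries lay above all others, while the wild-type and hrde-1 ranges overlapped. The means of fbf-2 were 18.2 ± 2.62, 20.0 ± 3.06 and 26.1 ± 0.756 in the same order, and those of fbf-1 were 17.1 ± 1.96, 16.9 ± 0.949 and 20.5 ± 2.27 (SD, n = 3 each).

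Because fragments of fbf-1 and fbf-2 can be exchanged, their counts were also summed. The summed level was 17.6 ± 2.27 in wild-type, 18.5 ± 1.31 in hrde-1 and 23.4 ± 0.766 in hrde-2 libraries (SD, n = 3). The latter (22.6 to 24.1) lay above the others (15.02 to 20.0). fbf-2 took 51.8% ± 1.15 of the summed counts in wild-type, 54.3% ± 4.83 in hrde-1 and 56.4% ± 3.45 in hrde-2 libraries (SD, n = 3). The shares in hrde-2 libraries (53.6% to 60.3%) lay above those in wild-type (51.01% to 53.1%), and those in hrde-1 libraries (48.9% to 58.1%) overlapped both. The highest wild-type share came from the shallow replicate 2, with 60 fbf-1 and 68 fbf-2 counts, and is imprecise. The difference in share was not tested.

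gld-1, which encodes the translational repressor, had the highest mean level of the 6 in each genotype. Its values were 27.3, 19.1 and 26.5 in wild-type, 25.4, 27.4 and 29.4 in hrde-1 and 36.1, 31.3 and 36.2 in hrde-2 mutants. The low wild-type value came from the shallow replicate 2, with 63 counts. Means were 24.3 ± 4.52, 27.4 ± 2.02 and 34.5 ± 2.81 (SD, n = 3), and the hrde-2 libraries lay above all others. With rRNA and mitochondrial genes left out of the totals, the lowest hrde-2 value (36.5) lay below the highest hrde-1 value (38.1), and with TMM-scaled library sizes it (29.2) lay below the highest of both wild-type (30.2) and hrde-1 (30.5).

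gld-2, the poly(A) polymerase gene, was the only member whose hrde-1 libraries all lay above wild-type. It had 15.1, 13.3 and 13.4 in wild-type, 16.97, 19.4 and 18.2 in hrde-1 and 18.9, 19.3 and 18.6 in hrde-2 mutants, and the ranges of the mutants overlapped. gld-3, the gene of its KH-domain partner, had 18.8, 17.1 and 13.3 in wild-type, 14.7, 20.1 and 16.3 in hrde-1 and 21.3, 21.1 and 18.3 in hrde-2 mutants. These ranges overlapped between all genotypes. With TMM-scaled library sizes the hrde-2 libraries of gld-3 (18.1 to 20.3) lay above wild-type (15.2 to 17.9). Means of gld-2 were 13.9 ± 0.965, 18.2 ± 1.24 and 18.9 ± 0.345, and of gld-3 16.4 ± 2.80, 17.02 ± 2.76 and 20.2 ± 1.71 (SD, n = 3).

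**Figure D1:**
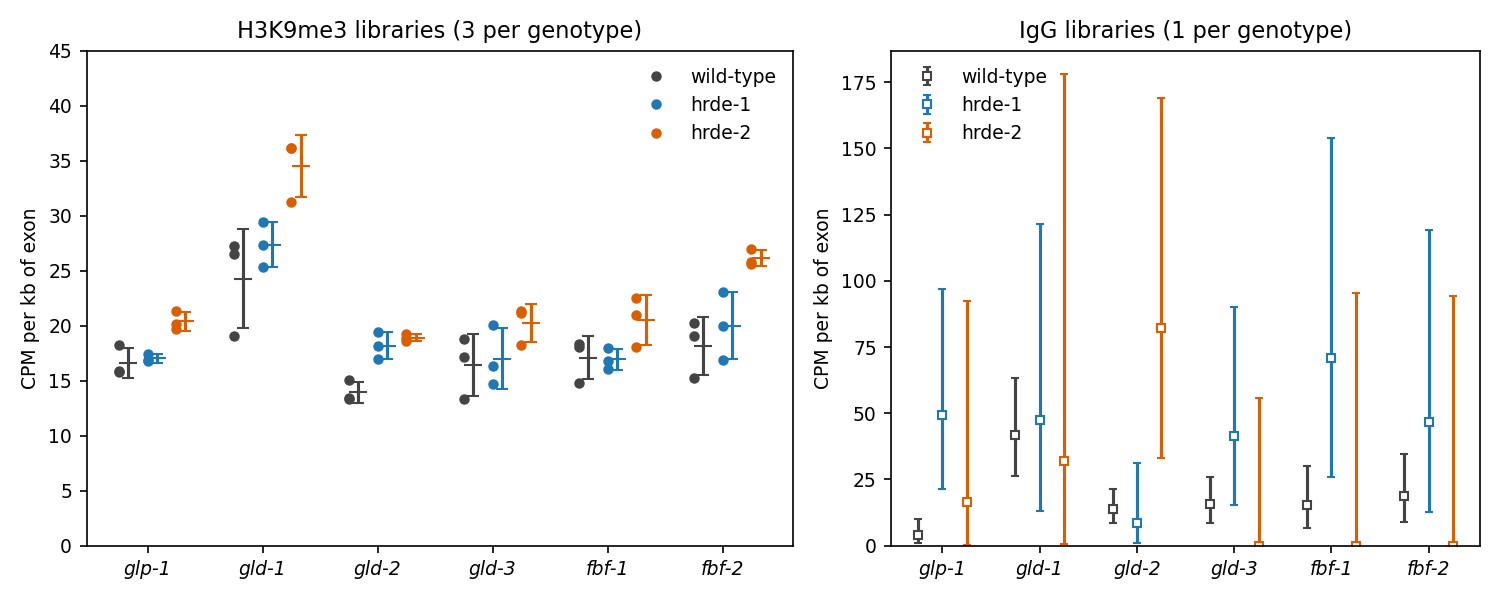
Levels of the 6 genes, in CPM per kb of exon, in H3K9me3 libraries (left, a point per library, bar for mean ± SD, n = 3) and IgG libraries (right, square with the exact Poisson 95% interval of its count or, for a count of 0, a bar up to the level of 3 counts, n = 1). gld-1 stands highest on the left, at 24.3 (wild-type) to 34.5 (hrde-2), and the intervals on the right are wide because the IgG counts were between 0 and 22.

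Over the 9 H3K9me3 libraries, the order of mean levels was gld-1 (28.7), fbf-2 (21.4), fbf-1 (18.2), glp-1 (18.01), gld-3 (17.9) and gld-2 (17.02). gld-1 exceeded fbf-2 in 8 of 9 libraries and fbf-2 exceeded fbf-1 in 8 of 9. The last 4 genes changed places from library to library, with fbf-1 above glp-1 in 4 of 9, glp-1 above gld-3 in 6 of 9 and gld-3 above gld-2 in 5 of 9. Each gene varied between libraries by a factor of 1.35 (glp-1) to 1.89 (gld-1) from lowest to highest.

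Among 19658 protein-coding genes tested, the median level in wild-type was 18.9 (quartiles 12.8 and 28.4). It was 18.98 in hrde-1 and 20.5 in hrde-2 mutants, so levels on this scale stood higher in hrde-2 libraries for coding genes at large. With total counts alone, the median log2 fold change of all genes tested was 0.10 in hrde-2 mutants against wild-type. In wild-type, gld-1 stood at percentile 66.3 of these genes and the others between 29.6 (gld-2) and 47.3 (fbf-2). Against coding genes in the centre of their own chromosome, gld-1 stood at percentile 88.3 in wild-type, 90.9 in hrde-1 and 94.4 in hrde-2 mutants, among 1116 genes with a median of 13.3 to 15.6. The other members stood between percentile 52.5 and 82.9 of their own chromosome's centre in all genotypes, the highest being fbf-2 in hrde-2 mutants.

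The IgG libraries give the background measured without the primary antibody. In the wild-type IgG library, glp-1, gld-1, gld-2, gld-3, fbf-1 and fbf-2 had 4, 22, 20, 14, 8 and 10 counts. The 6 genes together had 78 counts in wild-type IgG, 30 in hrde-1 and 9 in hrde-2, and 6003, 9416 and 9126 in the summed H3K9me3 libraries of these genotypes. Their share of all counts in H3K9me3 libraries divided by that in IgG was 1.05 in wild-type (exact conditional 95% interval 0.844 to 1.34), 0.499 in hrde-1 (0.349 to 0.739) and 0.721 in hrde-2 mutants (0.380 to 1.58). An excess of the 6 genes over IgG was thus not detectable in any genotype at this depth, and the hrde-1 share lay below that of its IgG library. With nuclear rRNA and mitochondrial genes left out of the totals, the wild-type ratio was 0.796. These intervals cover counting error only, since PCR copies are not independent molecules and there is no replicate IgG library.

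By gene, glp-1 in wild-type had an H3K9me3 to IgG ratio of 4.05 (95% interval 1.58 to 14.9), resting on 4 IgG counts. In hrde-1 mutants the same ratio for glp-1 was 0.347 (0.175 to 0.804) on 8 IgG counts. Likewise below 1 were fbf-1 in hrde-1 mutants, at 0.238 (0.109 to 0.651) on 6 IgG counts, and gld-2 in hrde-2 mutants, at 0.231 (0.112 to 0.575) on 7 IgG counts. The intervals of the other ratios in the mutants included 1. Without nuclear rRNA and mitochondrial genes in the totals, that of gld-3 in hrde-1 mutants did not (0.365, 0.167 to 0.996). gld-1, the gene with the highest H3K9me3 level, also had the highest wild-type IgG level of the 6. It was 41.9 CPM per kb (95% interval 26.3 to 63.4), against 15.8 for coding genes of chromosome centres pooled. The ratio of gld-1 in wild-type was 0.625 (0.410 to 1.00). With nuclear rRNA and mitochondrial genes left out of the totals, it was 0.471 (0.310 to 0.756). gld-2, gld-3, fbf-1 and fbf-2 had ratios of 0.918 to 1.09 in wild-type, with intervals that included 1. Without nuclear rRNA and mitochondrial genes in the totals these were 0.693 to 0.821, and their intervals again included 1. On the same totals glp-1 in wild-type had 3.06 (1.19 to 11.2). gld-3, fbf-1 and fbf-2 had 0 counts in the hrde-2 IgG library, which at 3 counts allows up to 55.9, 95.5 and 94.2 CPM per kb, above their H3K9me3 levels. For comparison, the 7438 tested coding genes of chromosome centres, pooled, had a level 14.5% above IgG in wild-type, 5.64% above in hrde-1 and 19.2% above in hrde-2 mutants. These percentages use totals that include nuclear rRNA and mitochondrial genes and were not computed without them. Nuclear rRNA genes took 35.1% of counts in wild-type IgG and 16.9% to 24.6% in wild-type H3K9me3 libraries. The percentages therefore do not show that genes of chromosome centres exceeded IgG where the members did not.

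The question put to the mutants is whether loss of nuclear RNAi factors changed H3K9me3 at these genes. No member passed the test in hrde-1 mutants against wild-type (edgeR quasi-likelihood F-test, adjusted p under 0.05, 0 of 6), where 0.76% of the 28691 genes tested were called. The log2 fold changes, TMM-scaled, were 0.04 ± 0.12 for glp-1, 0.10 ± 0.14 for gld-1, 0.06 ± 0.12 for gld-3, -0.0013 ± 0.14 for fbf-1 and 0.17 ± 0.14 for fbf-2 (± SE). gld-2 had the largest value, 0.36 ± 0.11 (a fold of 1.29, 95% interval of the log2 change 0.13 to 0.59, edgeR adjusted p = 0.142). gld-2 was also the only member with an unadjusted p under 0.05, as 11% of all genes tested had. In this comparison 5 of 6 members were above 0, against 50.8% of all genes and 67.0% of coding genes of chromosome centres, and their median was 0.08 against 0.09 for those genes.

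In hrde-2 mutants against wild-type, again 0 of 6 members passed the test (edgeR adjusted p 0.148 to 0.743), where 0.495% of all genes were called. All 6 log2 fold changes were above 0, against 50.6% of all genes tested and 66.0% of coding genes of chromosome centres. fbf-2 had 0.46 ± 0.14 (a fold of 1.38, 95% interval of the log2 change 0.19 to 0.74, edgeR adjusted p = 0.148). gld-1 had 0.35 ± 0.14 (edgeR adjusted p = 0.368) and gld-2 0.33 ± 0.11 (edgeR adjusted p = 0.261). These were the 3 members with an unadjusted p under 0.05, as 9.3% of all genes had. glp-1, gld-3 and fbf-1 had 0.21 ± 0.12, 0.22 ± 0.13 and 0.18 ± 0.14, with intervals that included 0. The median of the 6 was 0.28, against 0.0039 for all genes tested and 0.08 for coding genes of chromosome centres, among which fbf-2 stood at percentile 95.3.

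The hrde-2 comparison was the one in which the scaling decided a call. When the scaling factors were taken from the densest 10% of genes by counts per kb, the median of all genes moved to 0.17 and 3 members passed the test, gld-1 at 0.53, gld-2 at 0.50 and fbf-2 at 0.62 (edgeR adjusted p = 0.0453, 0.0256 and 0.0288). Relative to that median, the 3 changes were about as large as under the main scaling. Changes of the size seen in the members were mostly not detectable in this design. In simulated counts for hrde-2 mutants against wild-type, 3.5% of 200 genes changed by 0.5 on the log2 scale were called among 28621 genes tested, and 88.5% of those changed by 1 among 28609 genes tested.

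Set directly against hrde-1 mutants, hrde-2 mutants also showed no called member (0 of 6, edgeR adjusted p 0.698 to 0.989), where 0.443% of all genes were called. fbf-2 had 0.30 ± 0.13 and was the only member with an unadjusted p under 0.05, as 6.44% of all genes had. gld-2 had -0.03 ± 0.11 and the other 4 had 0.17 to 0.25, so 5 of 6 were above 0 where 51% of all genes were. The mutant comparisons share the wild-type libraries, and the values of a gene in them are not independent.

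**Figure D2:**
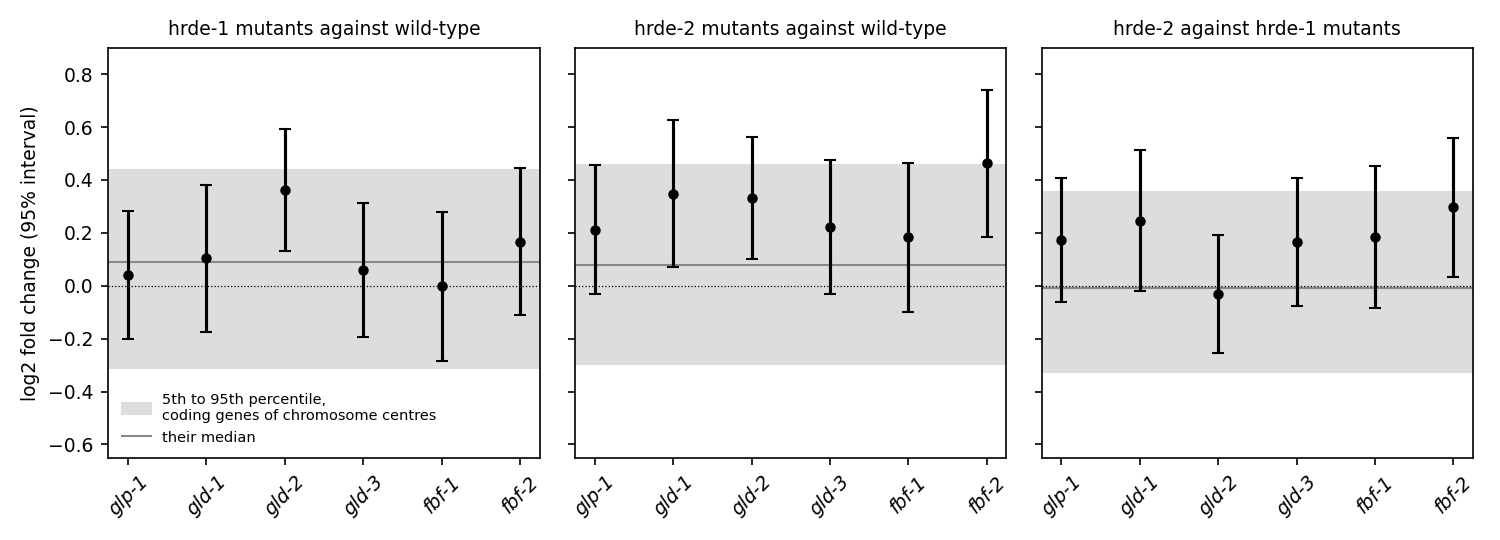
Log2 fold changes of the 6 genes (points, bars for the 95% interval) in the 3 comparisons, from 3 H3K9me3 libraries per genotype. The grey band spans the 5th to 95th percentile and the line the median of 7438 coding genes of chromosome centres. In hrde-2 mutants against wild-type all 6 points lie above the line, between 0.18 and 0.46, and the point of fbf-2 lies just above the band.

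Each member was set beside its neighbouring genes in the H3K9me3 libraries alone. Of the 5 tested protein-coding genes on each side, those around gld-1 had levels of 4.12 to 27.5 in wild-type (median 10.1), and gld-1 at 24.3 exceeded 9 of 10. gld-1 also had the highest wild-type IgG level of the 6 members (41.9 CPM per kb, the others 3.95 to 18.7). IgG levels of the neighbours were not computed, so whether gld-1 exceeded them over background was not tested. Immediately beside gld-1, T23G11.4 had 6.99 ± 3.65 and T23G11.10 had 4.12 ± 0.778 (SD, n = 3). The other members were closer to the middle of their neighbourhoods, exceeding 6 of 10 (glp-1, gld-3, fbf-1 and fbf-2) or 7 of 10 neighbours (gld-2). Beside glp-1, mrpl-44 had 13.4 ± 2.26 and ZK507.1 21.2 ± 3.25 in wild-type. Beside gld-2, ZC308.4 had 12.2 ± 4.29 and klu-2 9.52 ± 3.58, and beside gld-3, T07F8.4 had 14.2 ± 3.55 and npr-31 13.6 ± 1.73. On the outer sides of the fbf pair, H12I13.1 had 22.2 ± 2.51 and nspg-3 16.4 ± 5.78, and F21H12.3, which lies between fbf-1 and fbf-2, had 25.0 ± 12.0.

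None of the 51 distinct neighbours was called in any of the 3 comparisons. In hrde-2 mutants against wild-type, 37 of them were above 0 (median 0.14), and in hrde-1 mutants 33 were (median 0.08). Of coding genes of chromosome centres, 66.0% and 67.0% were above 0 in the same order. Around gld-1 all 10 neighbours were above 0 in hrde-2 mutants, with log2 fold changes of 0.05 to 0.74 (median 0.22) and edgeR adjusted p of at least 0.392. Of the genes next to a member, T23G11.10 had 0.74 ± 0.45, T23G11.4 0.69 ± 0.33, mrpl-44 0.39 ± 0.13 and klu-2 0.38 ± 0.23 in this comparison, and none of these passed the test.

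**Figure D3:**
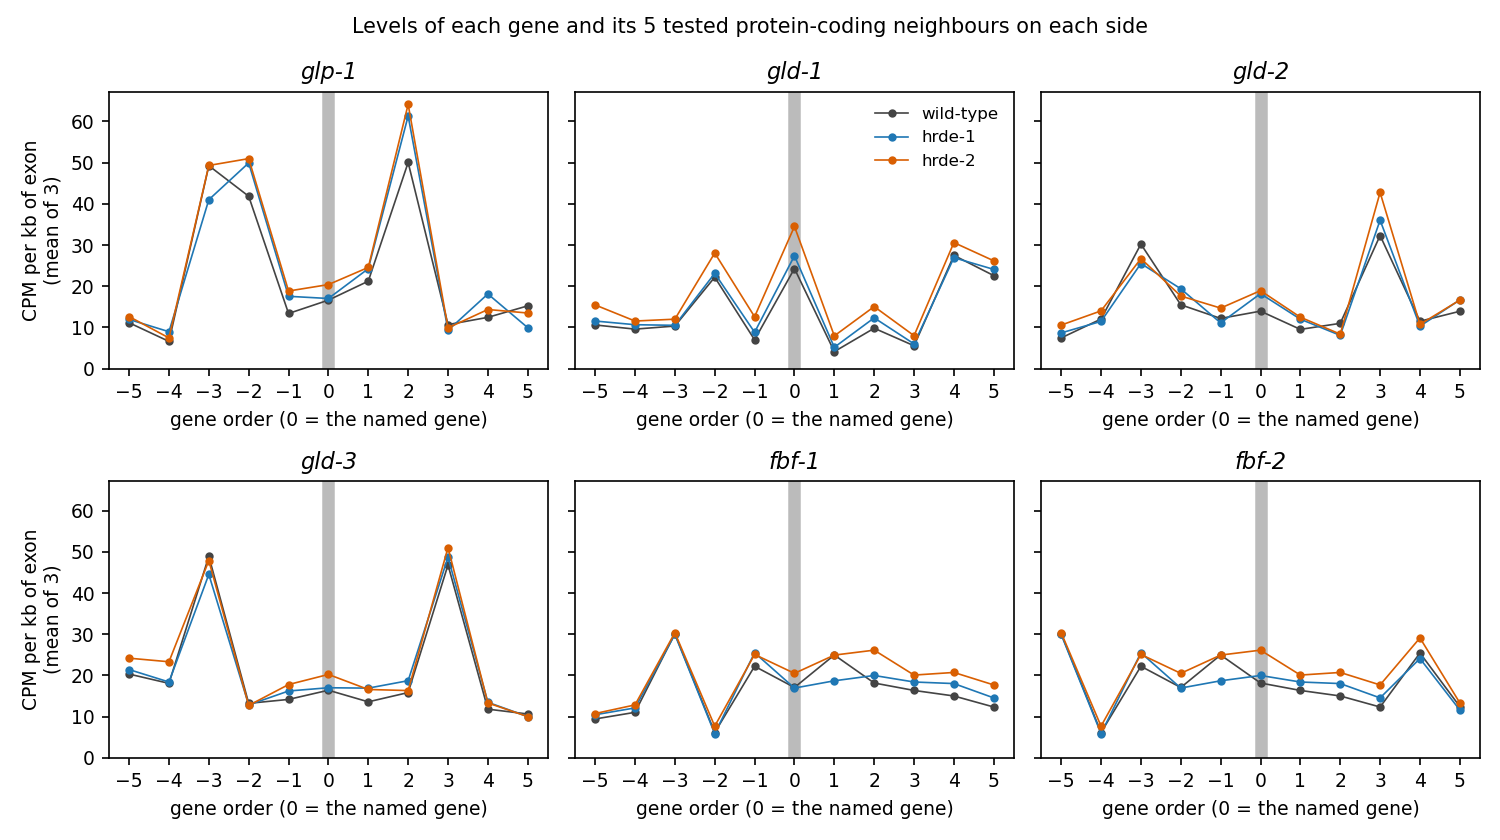
Mean level in 3 H3K9me3 libraries per genotype (CPM per kb of exon) of each of the 6 genes (position 0, grey bar) and the 5 tested protein-coding genes on either side, in chromosome order. gld-1, at 24.3 in wild-type, stands between neighbours at 6.99 and 4.12, and the hrde-2 line runs above wild-type at each of the 10 neighbours of gld-1.

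The pathway genes around the 6 members were read from 6 lists. The Notch list held 19 genes, those of the pathway, its germline targets and ego-1. It was fixed with earlier results of these data known, so its share of calls is not a result about Notch genes. In hrde-2 mutants against wild-type 1 was higher and 0 were lower by the test, where 0.495% of all genes were called. In hrde-1 mutants 0 were called. The called gene was ego-1, an enhancer of glp-1 that encodes an RNA-dependent RNA polymerase making small RNAs in the germline (chrI:7650418-7656336, 5212 bp of exon), 39324 bp from gld-1. ego-1 had a level of 14.1, 12.8 and 12.3 in wild-type, 15.9, 17.1 and 15.3 in hrde-1 and 24.1, 25.8 and 22.3 in hrde-2 mutants, and the 3 ranges did not overlap. Its log2 fold change was 0.78 ± 0.12 in hrde-2 mutants (a fold of 1.71, edgeR adjusted p = 0.00011) and 0.28 ± 0.12 in hrde-1 mutants (edgeR adjusted p = 0.334). Between the mutants it was 0.49 ± 0.11 (edgeR adjusted p = 0.0201), a call lost when any hrde-1 or hrde-2 library was left out (adjusted p 0.0559 to 0.285). In the IgG libraries ego-1 had 22, 6 and 2 counts (wild-type, hrde-1, hrde-2), or 18.04, 30.6 and 27.5 CPM per kb. Its H3K9me3 values lay below the IgG value of the same genotype. No interval was computed for ego-1, and such low IgG counts cannot settle whether its level exceeded IgG.

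None of the other 18 genes of the Notch list passed the test in any comparison. The median log2 fold change of the list was 0.07 in hrde-2 and 0.14 in hrde-1 mutants. The ligand gene arg-1 had the highest level of the list, 79.8 ± 7.06 in wild-type, and -0.35 ± 0.15 in hrde-1 mutants. The gamma-secretase subunit gene pen-2 had the lowest level, 4.64 ± 3.32, and -0.73 ± 0.52 in hrde-2 mutants. sup-17, which encodes the ADAM protease that cleaves Notch receptors, had 0.26 ± 0.14 in hrde-1 mutants.

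No gene was called in any comparison in the remaining 5 lists. Beside their counts above 0 stand 50.6% of all genes tested in hrde-2 and 50.8% in hrde-1 mutants. Of coding genes of chromosome centres, 66.0% and 67.0% were above 0. Of 18 PUF genes and partners of FBF and GLD proteins, 15 were above 0 in hrde-2 mutants (median 0.19) and 13 in hrde-1 mutants (median 0.07). Their largest values were for puf-12 (0.56 ± 0.15) and nos-2 (-0.47 ± 0.21) in hrde-1 mutants and for cpb-1, a CPEB-family gene, in hrde-2 mutants (0.35 ± 0.14). puf-12 had an edgeR adjusted p of 0.0653 and passed the test without wild-type replicate 3 (0.69, adjusted p = 0.0346).

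Of 14 genes of the sperm to oocyte decision, a step in which FBF and GLD-1 also act, 11 were above 0 in hrde-2 mutants (median 0.13) and 10 in hrde-1 mutants (median 0.17). fem-3, whose mRNA FBF represses, had a level of 15.8 ± 3.21 in wild-type and 9.90 ± 0.881 in hrde-1 mutants (log2 fold change -0.62 ± 0.18, edgeR adjusted p = 0.0894). It passed the test in libraries thinned to the depth of the shallowest (-1.05, adjusted p = 0.0255). mog-5 had 0.39 ± 0.13 and fog-3, which promotes sperm fate, 0.37 ± 0.26 in hrde-1 mutants.

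Of 12 genes of meiotic entry and GLD-1 target mRNAs, 10 were above 0 in hrde-2 mutants (median 0.15) and 10 in hrde-1 mutants (median 0.08). mes-3 had 0.35 ± 0.20 in hrde-1 mutants, and cep-1, the worm p53 gene, and oma-1, an oocyte maturation gene, had 0.34 ± 0.19 and 0.30 ± 0.13 in hrde-2 mutants. Of 24 tested genes of the chromosome axis, synapsis and recombination, 22 were above 0 in hrde-2 mutants (median 0.24) and 19 in hrde-1 mutants (median 0.15). Among these, cosa-1, a crossover gene, had -0.62 ± 0.24 in hrde-1 mutants, and the meiotic kinase gene chk-2 and the synaptonemal complex gene syp-3 had 0.51 ± 0.18 and 0.46 ± 0.25 in hrde-2 mutants.

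A list of 18 genes that mark muscle, intestine, nerve and hypodermis was read beside these. CUT&Tag counts DNA and not transcripts, so these genes cannot check that the nuclei were germline, which was not tested here. Their median level in wild-type was 26.2 (14.5 to 85.1), against 13.9 to 24.3 for the means of the 6 members. In hrde-2 mutants 7 of 18 were above 0 (median -0.04) and in hrde-1 mutants 9 were (median 0.03). The largest values were -0.42 ± 0.22 for the neuronal gene rab-3 and 0.34 ± 0.14 for the epidermal gene lin-26 in hrde-1 mutants, and -0.38 ± 0.15 for the intestinal gene ges-1 in hrde-2 mutants.

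**Figure D4:**
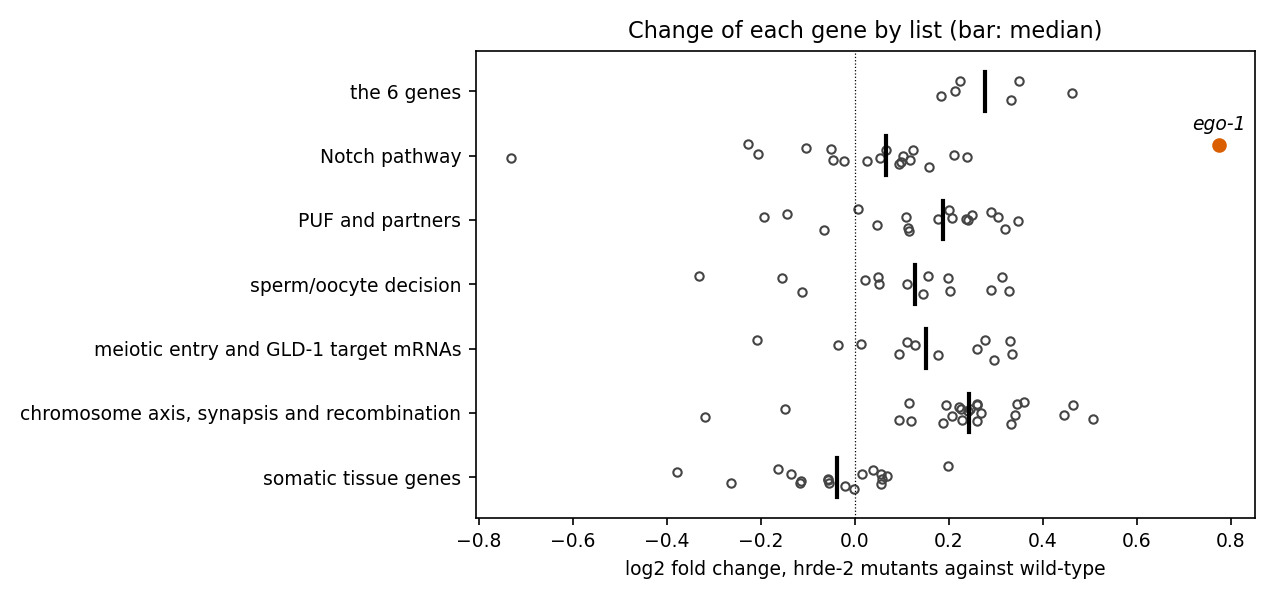
Log2 fold change in hrde-2 mutants against wild-type (x axis) of the 6 genes and of each tested gene of 6 lists (rows), with a bar at the median of each row. Filled points passed the test. Only ego-1, at 0.78, did, and the medians run from -0.04 for somatic tissue genes to 0.28 for the 6 genes.

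Across the 9 H3K9me3 libraries, the gene most like each member in log2 CPM was sought among 15756 genes with a mean count of at least 100. These were mip-1 for glp-1 (Pearson r = 0.958), smz-2 for gld-1 (0.979), sds-22 for gld-2 (0.970), golg-5 for gld-3 (0.939), sut-2 for fbf-1 (0.943) and nprl-2 for fbf-2 (0.946). The highest of so many values over 9 libraries is large by selection, and libraries of a genotype share its difference. Among themselves the 6 members had r between 0.170 (gld-2 and fbf-1) and 0.714 (gld-1 and gld-2) over the same 9 libraries. These pairs were not picked as the highest of many, so they cannot be set against the values above. The r of other gene pairs was not computed.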

How the data were processed

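The deposited files hold, for each gene, the count of fragments that the authors obtained with featureCounts of the Subread package 2.0.1 over WS258 exons, without strand, after alignment with Bowtie2 2.5.0 (per the file headers and the submitters' processing notes). A fragment that fits several places is placed at one of them, and fragments in introns were not counted. Removal of duplicates is not given in the sources used here. All values were whole numbers. Gene symbols came from Ensembl 115 by identifier (46564 of 46760 genes matched).

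Levels were computed as CPM, the count scaled to 1000000 library counts, per kb of exon. The 9 H3K9me3 libraries entered 1 edgeR 4.0.16 quasi-likelihood fit in R 4.3.3 with TMM scaling, filterByExpr at a minimum count of 10 and Benjamini-Hochberg adjustment over 28691 genes at 0.05, genotype being the only term. The study names DiffBind for its differential analysis of these libraries, without giving the samples or model of a fit to gene counts, and DiffBind was not used here. All 6 members passed the filter. Intervals of log2 changes use the fit's t distribution. IgG libraries, 1 per genotype, gave exact Poisson and conditional 95% intervals, for counting error only. Exon alignments and 50-base words were made with Biopython 1.88 from the WBcel235 genome.

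The members, the gene lists and the tests were chosen with earlier results of these data known. Named besides the members were called genes and up to 3 others with the largest changes of each list, the genes next to each member, and the gene most correlated with each. Of 25 genes of meiotic chromosomes 24 matched a symbol. Alternatives were other scalings, DESeq2 1.42.0, other filters, a replicate block, 2 genotypes only, thinning, leaving out rRNA and mitochondrial genes, and leaving out each library. The code was tested on simulated data. Replicate numbers were not taken to pair libraries in the main fit. Same-numbered libraries of different genotypes deviated together with r from -0.0486 to 0.116, and 1 of 9 pairs was over 0.1. Such values cannot exclude a pairing.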

Additional observations from a re-analysis of the deposited data

Results flagged for a closer look

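The difference of ego-1 between hrde-2 and hrde-1 mutants was singled out because the change against wild-type differed between the mutants by a direct test (log2 difference 0.49, edgeR adjusted p = 0.0201). It was called in 9 of 16 alternatives and kept its sign in all 16 (0.37 to 0.62), and in libraries thinned to the shallowest it fell to 0.37 (edgeR adjusted p = 0.626). No member of the 6 genes met this condition. With 3 libraries a group, single libraries far from the rest were not searched for.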

How the results depend on the processing

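The result that no member was called held under all 16 alternatives for hrde-1 against wild-type and for hrde-2 against hrde-1 mutants, and under 15 of 16 for hrde-2 against wild-type. The exception was TMM scaling over the densest 10% of genes by counts per kb, with 3 members called. All 6 members stayed above 0 in hrde-2 mutants under every alternative. Signs turned only for members near 0. fbf-1 in hrde-1 mutants was 0.0041 with total counts alone, 0.033 with TMM over the densest genes, 0.0097 with no low-count filter, 0.0016 with the replicate block, 0.066 in thinned libraries and -0.0783 to 0.0833 with a library left out. gld-3 in hrde-1 mutants was -0.0866 in thinned libraries and -0.0217 to 0.13 with a library left out, glp-1 there -0.0476 (without wild-type replicate 1) to 0.11, and gld-1 -0.0095 (without wild-type replicate 2) to 0.25. gld-2 in hrde-2 against hrde-1 mutants was 0.0568 with total counts alone and 0.0957 with TMM over the densest genes.

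Over all genes, 218 were called for hrde-1 against wild-type, 142 for hrde-2 against wild-type and 127 between the mutants. With no low-count filter these counts moved to 328 (hrde-1) and 249 (hrde-2), in thinned libraries to 131 (hrde-1), with TMM over the densest genes to 269 (hrde-2), and with only the 2 genotypes compared to 224 (between the mutants). With a library left out they ran from 95 to 301 for hrde-1 (95 without its replicate 1 and 109 without its replicate 3), from 50 to 205 for hrde-2 (75, 50 and 89 without its replicates 1, 2 and 3) and from 76 to 118 between the mutants (76 without hrde-1 replicate 1 and 80 without hrde-2 replicate 2). Scaling also moved the split of calls. For hrde-2 it was 53 upward and 89 downward with TMM, 99 and 34 with total counts alone, and 245 and 24 with TMM over the densest genes. For hrde-1 it was 54 and 164, and 61 and 89 with TMM over the densest genes. Between the mutants it was 60 and 67, and 85 and 53 with total counts alone, 103 and 47 with TMM over the densest genes, 60 and 40 with DESeq2, and 56 and 29 without rRNA and mitochondrial genes. Without those genes it was 21 and 160 for hrde-1. Without wild-type replicate 3 it was 151 and 150 for hrde-1 and 92 and 42 for hrde-2, and the latter was 41 and 34 without hrde-2 replicate 1 and 29 and 21 without hrde-2 replicate 2.

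The replicate block changed no call of a member (0 of 6 in each comparison) and gave 292, 166 and 144 called genes for the same comparisons. The numbers were not taken to pair the libraries, although 6 of 9 libraries correlated best with their own number. Between wild-type and hrde-2 libraries, r was 0.0983 (number 1), -0.0198 (number 2) and 0.116 (number 3) for the same number. It was -0.133 and -0.106 where numbers 1 and 3 were crossed. The check cannot exclude a pairing of these libraries. Summed over the 6 members, levels (CPM per kb) were 22.1 (hrde-2), 18.8 (hrde-1) and 16.8 (wild-type), and 26.5, 23.8 and 21.3 when rRNA and mitochondrial genes left the totals, which makes the totals smaller. With TMM-scaled library sizes the hrde-2 level was 21.2. The H3K9me3 to IgG ratio in wild-type was 0.796 without rRNA and mitochondrial genes, whose share of counts was larger in IgG. Depth limits the IgG comparison, whose libraries, 1 per genotype, held 9 to 78 counts over the 6 genes. The cause of the other changes was not tested.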
